A study of Mus musculus with 5 samples.

Results

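SUZ12 peaks near genes were compared between Mbd3-knockout mouse embryonic stem cells (ESCs) carrying full-length MBD3 and the same kind of cells carrying a GFP control. Each group was 1 chromatin immunoprecipitation sequencing (ChIP-seq) library, titled WT and GFP. A gene counted as listed in a library when its deposited peak table linked at least 1 peak centred within 5000 bp of the transcription start site. By that rule 1736 genes were listed in WT or GFP, out of 1935 listed in any of the 4 peak tables of the series. They fell into 685 genes listed in WT alone (WT only), 72 listed in GFP alone (GFP only) and 979 listed in both. Both groups were male cells of strain 129SV, lacked Mbd3 and were kept in conventional ESC medium containing LIF, and SUZ12 was precipitated with the Millipore antibody 04-046. The labels give the names WT and GFP alone, so reading WT as cells with full-length MBD3 and GFP as cells without MBD3 is an assumption. How the proteins were introduced, from which promoter, and whether each line was 1 clone is not given in the sources used here. Whether MBD3 was made in either culture, and whether the cells were ESCs as labelled, cannot be checked in a SUZ12 peak table. The series also has libraries from knockout cells with MBD3a lacking the MBD domain (ΔMBD) or the coiled-coil domain (ΔCC), and an input library from EBRTcH3 cells that was not used here.

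SUZ12 is 1 of the core subunits of PRC2, the Polycomb complex that methylates lysine 27 of histone H3. In ESCs, PRC2 sits mainly at CpG-rich promoters of developmental regulators that are silent or nearly silent in these cells. MBD3 is a subunit of NuRD, a complex that joins nucleosome remodelling to histone deacetylation. ESCs without Mbd3 keep renewing themselves but commit poorly to differentiated lineages.

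The tables held peak names and signed distances, with no peak height, width, coordinate or read number. A peak that is present in a list and a peak that narrowly missed the caller's threshold in the other library can thus differ little, and the depth of the libraries is unknown. In WT, 2671 peaks lay within 5000 bp of 1664 genes, and in GFP, 1893 peaks near 1051 genes. The highest peak number was 4097 in WT and 2905 in GFP, so fewer peaks had been called in GFP in all. This did not hold everywhere: the 979 genes listed in both had 1697 WT and 1770 GFP peaks. Of 21900 protein-coding symbols, 7.32% were listed in WT and 4.61% in GFP, 3.01% were WT only, 0.297% GFP only and 4.32% in both. Within the 1736 genes, WT only made up 39.5%, GFP only 4.15% and both 56.4%. The farthest pair inside the limit lay 4997 bp from the start site in WT and 4994 bp in GFP, and the nearest pair beyond it 8933951 bp and 8940257 bp. Peaks had already been linked to genes within 5000 bp before deposit, so this gap says nothing of how peaks run beyond the limit. The closest WT peak lay over 4000 bp away at 13 of the 685 WT-only genes, and the closest GFP peak at 3 of the 72 GFP-only genes. With 1 library a group, no difference below has a replicate check. Shares carry exact 95% Clopper-Pearson intervals, which cover counting error over genes or peaks only.

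Promoters with a peak centre on them show the sequence under these calls. PRC2 is known to favour unmethylated CpG islands, so each C followed by G is printed in capitals in the sequences below. They come from RefSeq, build GRCm38.p6, and run 5′ to 3′ on the gene's strand from 250 bases before to 50 bases after the annotated start. The peak distances were measured on build mm9 from the start sites of the association tool, which may differ from the RefSeq starts. Nfil3, which encodes a bZIP repressor, had 4 WT peaks and no GFP peak, and its nearest centre lay at -35 bp (promoter chr13:52980990-52981289, minus strand). Adm, the gene of the vasodilator peptide adrenomedullin, also had 4 against 0, with the nearest at -203 bp (chr7:110627407-110627706, plus strand). Cacna1e, an R-type calcium channel subunit, had 3 against 0 with a centre at -6 bp (chr1:154725871-154726170, minus strand). Rasgrf2, a Ras activator, had 3 against 0 with a centre at +35 bp (chr13:92131779-92132078, minus strand). Gm13288, of the interferon zeta cluster, had 0 WT and 5 GFP peaks, the nearest at -119 bp (chr4:88805281-88805580, plus strand). Prss12, which encodes the synaptic protease neurotrypsin, had 3 WT peaks and 1 GFP peak, with nearest centres at +41 bp in WT and -246 bp in GFP (chr3:123446663-123446962, plus strand). Ntrk2, the receptor of the neurotrophin BDNF, had 1 WT peak at -234 bp and 2 GFP peaks, the nearer at -18 bp (chr13:58806319-58806618, plus strand).
Nfil3: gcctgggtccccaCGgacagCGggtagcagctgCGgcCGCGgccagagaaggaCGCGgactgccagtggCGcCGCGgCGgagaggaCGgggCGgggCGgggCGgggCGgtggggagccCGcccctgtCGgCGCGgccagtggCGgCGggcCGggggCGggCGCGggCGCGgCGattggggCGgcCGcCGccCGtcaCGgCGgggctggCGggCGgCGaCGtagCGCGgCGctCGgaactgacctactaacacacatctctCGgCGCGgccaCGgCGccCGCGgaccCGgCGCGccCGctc
Adm: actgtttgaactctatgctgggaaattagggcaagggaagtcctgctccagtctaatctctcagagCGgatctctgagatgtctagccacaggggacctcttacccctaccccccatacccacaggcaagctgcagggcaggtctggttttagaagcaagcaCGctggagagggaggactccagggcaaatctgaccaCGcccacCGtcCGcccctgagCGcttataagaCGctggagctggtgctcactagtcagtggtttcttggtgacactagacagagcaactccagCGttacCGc
Cacna1e: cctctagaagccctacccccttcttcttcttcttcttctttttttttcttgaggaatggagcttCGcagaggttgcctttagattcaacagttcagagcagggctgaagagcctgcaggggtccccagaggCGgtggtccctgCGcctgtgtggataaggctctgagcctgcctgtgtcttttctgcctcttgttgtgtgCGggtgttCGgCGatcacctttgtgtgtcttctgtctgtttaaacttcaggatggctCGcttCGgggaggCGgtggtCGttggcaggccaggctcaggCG
Rasgrf2: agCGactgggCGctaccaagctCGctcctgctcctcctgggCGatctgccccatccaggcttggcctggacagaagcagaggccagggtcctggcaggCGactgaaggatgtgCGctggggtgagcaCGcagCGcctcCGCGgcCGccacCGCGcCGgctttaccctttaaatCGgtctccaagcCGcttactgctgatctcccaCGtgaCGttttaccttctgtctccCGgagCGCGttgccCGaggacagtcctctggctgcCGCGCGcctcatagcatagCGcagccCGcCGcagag
Gm13288: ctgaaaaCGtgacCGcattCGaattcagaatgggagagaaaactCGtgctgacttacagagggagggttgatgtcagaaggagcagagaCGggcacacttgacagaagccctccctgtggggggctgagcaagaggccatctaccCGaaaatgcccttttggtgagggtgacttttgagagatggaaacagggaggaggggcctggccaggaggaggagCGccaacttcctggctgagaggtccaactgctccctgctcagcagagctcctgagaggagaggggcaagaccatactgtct
Prss12: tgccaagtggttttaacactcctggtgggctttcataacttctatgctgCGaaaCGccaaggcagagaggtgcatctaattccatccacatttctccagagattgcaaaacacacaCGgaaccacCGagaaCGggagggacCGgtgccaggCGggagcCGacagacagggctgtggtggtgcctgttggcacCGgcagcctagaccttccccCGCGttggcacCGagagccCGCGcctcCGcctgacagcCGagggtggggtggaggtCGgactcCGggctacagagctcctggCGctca
Ntrk2: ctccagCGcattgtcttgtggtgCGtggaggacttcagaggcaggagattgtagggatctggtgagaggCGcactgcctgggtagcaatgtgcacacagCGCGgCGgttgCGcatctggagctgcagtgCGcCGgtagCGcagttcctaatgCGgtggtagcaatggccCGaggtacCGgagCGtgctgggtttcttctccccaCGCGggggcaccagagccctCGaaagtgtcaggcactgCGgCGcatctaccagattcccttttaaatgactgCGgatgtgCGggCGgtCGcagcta
These 300 bases held 54 CpGs at Nfil3, 9 at Adm, 11 at Cacna1e, 28 at Rasgrf2, 7 at Gm13288, 19 at Prss12 and 23 at Ntrk2. Gm13283, in GFP only, and Rps6ka4, in both, were picked by the same rule but are not printed. They held 22 and 26 CpGs. The WT-only promoters thus covered both the highest and nearly the lowest count. A comparison of CpG content between the gene sets is void, because 72.6% of WT-only, 73.6% of GFP-only and 69.8% of shared genes had an entry in the promoter table, short of the 80% set for such a check.

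Transcription factors were the class that WT and GFP shared most, and enzymes and transporters the classes shared least. Of the 334 transcription factor genes listed in WT, 289 recurred in GFP, which is 86.5% (interval 82.4 to 90.0). Of all GFP genes 93.1% were in turn listed in WT, but 52.2% when at least 2 peaks were required in each library, where GFP only grew from 72 to 261 genes. Over all WT genes the share was 58.8%, and over all genes other than transcription factors it was 51.9% (49.2 to 54.6), with 690 of 1330. The share stayed at 86.3% (82.0 to 89.9) without the Hox genes. Within 1000 bp of the start site the shares were 64.3% for transcription factors and 41.9% for all other genes, and the GFP-only set then grew from 72 to 163 genes, of which 121 were in both at 5000 bp. Of the other classes with over 10 WT genes, secreted ligands came next at 73.2% (61.4 to 83.1), with 52 of 71. Receptors followed at 59.3% (51.0 to 67.3), adhesion and matrix genes at 58.2% (47.4 to 68.5) and ion channels at 50.9% (37.3 to 64.4). Transporters reached 41.0% (25.6 to 57.9) and enzymes 40.8% (33.0 to 48.9), with 16 of 39 and 64 of 157. The intervals of transcription factors and of the enzymes, transporters, channels, receptors, and adhesion and matrix genes did not overlap. Genes placed in no family gave 49.8% (45.9 to 53.8). Classes were assigned by patterns in the gene symbols, which placed 1075 of the 1736 genes in 1 of 46 families.

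**Figure D1:**
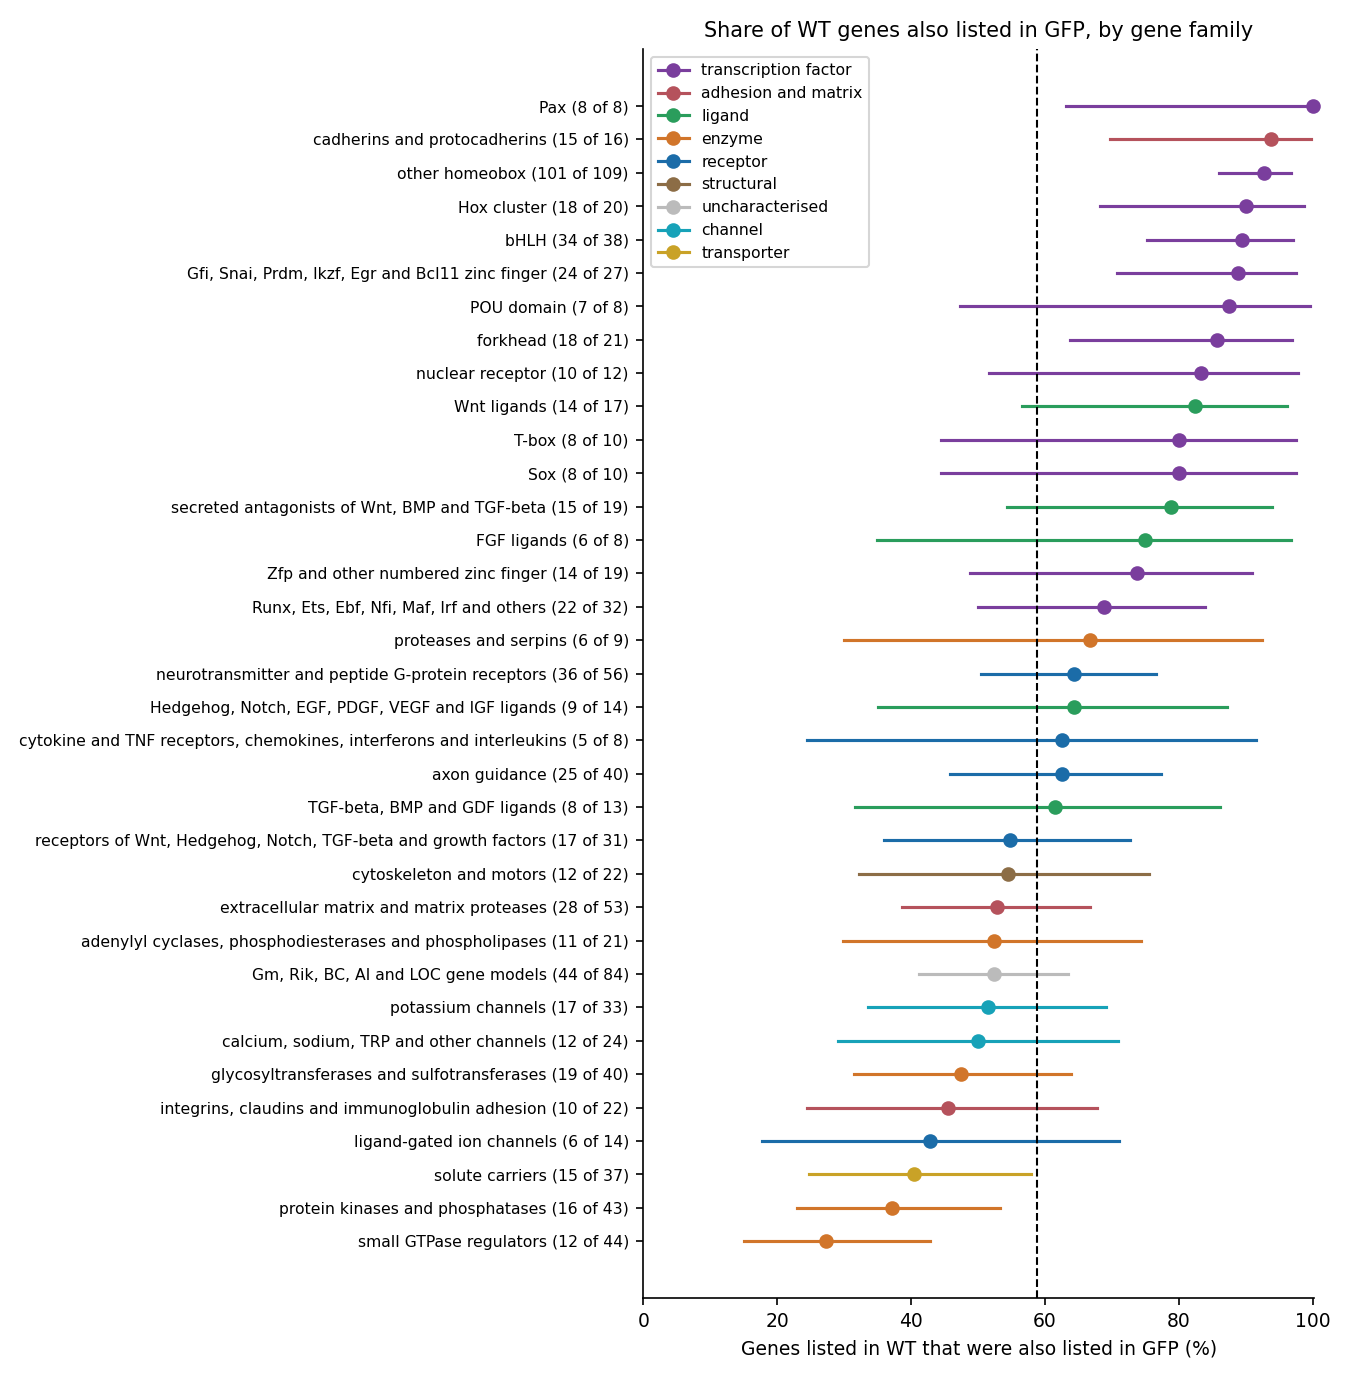
Share of genes listed in WT that were also listed in GFP (%), for each family with at least 8 WT genes. Points are shares, bars exact 95% Clopper-Pearson intervals over genes, colours classes of gene, and the dashed line the 58.8% of all WT genes. Homeobox, bHLH and other transcription factor families lie to the right of the line. The family named small GTPase regulators lies farthest to the left at 27.3%.

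Within the transcription factors, homeobox genes outside the Hox clusters stood at 92.7% (86.0 to 96.8), with 101 of 109 listed in both. All 8 Pax genes and all 5 GATA genes of the WT list recurred in GFP, as were 34 of 38 bHLH genes and 18 of 21 forkhead genes. Gata3, a regulator of trophoblast and T cells, had 1 WT peak at +1490 bp and 3 GFP peaks, and Sox9, a regulator of cartilage and gonad, had 1 WT peak and 2 GFP peaks. The loosely grouped family of Runx, Ets, Ebf, Nfi, Maf and Irf factors, many of them regulators of blood cells, lay lowest among families of over 20 genes, at 68.8% with 22 of 32.

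The 45 transcription factors in WT only included several with peaks spread over kilobases. Tfap2d, an AP-2 factor, had 5 WT peaks from -635 bp to +3241 bp and none in GFP. Zic5, a zinc finger gene of the neural plate and neural crest, had 5 from -4560 bp to +3683 bp. Tbx3, a T-box repressor active in limb and heart, had 4, at -2567, +304, +1150 and +2578 bp. Phox2a, which specifies autonomic neurons, and Elf4, an Ets factor of lymphocytes, had 3 each. Neurod1, a bHLH factor of neurons and endocrine pancreas, had 2, at -529 and +1359 bp, and so did Grhl2 of epithelia at +957 and +2499 bp. Most others rested on 1 peak, such as Tfap2c of the trophectoderm at -1071 bp, Mesp1 of cardiac mesoderm at +1487 bp, Sox10 of the neural crest at +967 bp and the glucocorticoid receptor gene Nr3c1 at -2335 bp. Heyl, a Notch target, and Tbx2 were listed through a single peak at +4732 and +4945 bp, so their place in WT only rests on the edge of the window.

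Lists of lineage regulators, taken from textbook knowledge with earlier results of these data known, were mostly shared where they were listed at all. Of 36 neuroectoderm genes, 31 were in both, 3 in WT only (Otx1, Neurod1 and Zic5), 1 in GFP only (Tbr1) and 1 in neither. Of 31 mesoderm genes, 18 were in both, 3 in WT only (Mesp1, Tbx3 and the VEGF receptor gene Kdr), 1 in GFP only (Mixl1) and 9 in neither. The endoderm list had 10 of 18 in both and 1 in WT only, the chemokine receptor gene Cxcr4, with a peak at +885 bp. The trophectoderm list had 11 of 20 in both and 2 in WT only, Tfap2c and Fgfr2. In neither library were 7 endoderm and 7 trophectoderm genes. The shares of WT genes kept in GFP ran from 84.6% (54.6 to 98.1) for trophectoderm to 91.2% (76.3 to 98.1) for neuroectoderm, and the intervals of the 4 lists overlapped. All 4 intervals included the 86.5% of all WT transcription factors. Most members of the lists are transcription factors already counted in that share. The intervals of trophectoderm and of endoderm (58.7 to 99.8) also included the 58.8% of all WT genes. The lists thus cannot show whether lineage regulators differ from their class.

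Ligand and receptor genes of the signalling pathways were in part missing from GFP. Among 17 Wnt ligand genes listed in WT, 14 were also in GFP, while of 31 receptor genes of the Wnt, Hedgehog, Notch, TGF-β and growth factor pathways 17 were, with overlapping intervals of 56.6 to 96.2% and 36.0 to 72.7%. The ligands of the TGF-β, BMP and GDF family, with 8 of 13, and those of the Hedgehog, Notch, EGF, PDGF, VEGF and IGF families, with 9 of 14, lay between these shares at 61.5% and 64.3%. The 3 Wnt ligands missing from GFP were Wnt9a at +522 bp, Wnt9b at +508 bp and Wnt16 at +1102 bp, each with 1 WT peak. The Wnt receptors missing from GFP were the frizzled genes Fzd3, Fzd4 and Fzd9, with 1 WT peak each. Lgr5, the R-spondin receptor of intestinal stem cells, had 1 at +618 bp. Kremen2, a receptor for the Wnt inhibitors of the Dickkopf family, had 5 WT peaks from +733 to +4739 bp. In all, 24 of the 33 Wnt pathway genes listed in WT were in GFP, or 72.7% (54.5 to 86.7). The interval of this list and those of the families above include the 58.8% of all WT genes. No member of the Wnt list was in GFP only, a set that made up 4.15% of all genes listed in WT or GFP.

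The other pathway lists gave like shares with wide intervals, all of which included the 58.8% of all WT genes. For BMP, Nodal and TGF-β, 12 of 19 WT genes were in GFP, or 63.2% (38.4 to 83.7). The 7 in WT only were the ligands Bmp4 (+1641 bp), Bmp8b, Gdf10, Inha and Tgfb1, the BMP antagonist Chrd, and Smad3, the signal transducer, with a peak at +41 bp. Id4, a target of BMP signalling, was in GFP only with 1 peak at +1075 bp. For FGF, 7 of 11 WT genes were shared, and Fgf2 (+156 bp), Fgf15 (+530 bp), the receptor gene Fgfr2 and the co-receptor gene Kl were missing from GFP. For Notch, 8 of 12 were shared, and the ligand genes Jag1 (+1070 bp) and Jag2 (+417 bp), Dlk2 and Heyl were missing. For Hedgehog 4 of 5 and for retinoic acid 5 of 7 were shared, and Rxra, a retinoid receptor, and Rbp4, the plasma carrier of retinol, were missing from GFP. No gene of the ligand class was in GFP only, a set that made up 4.15% of all genes listed in WT or GFP.

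The WT-only set also held 61 of the 150 receptor genes listed in WT, 28 of 57 channel genes and 38 of 91 adhesion and matrix genes. Over all WT genes it held 685 of 1664, and 321 of these 685 were in no family. Of 56 G-protein receptor genes in WT, 36 were in GFP, or 64.3% (50.4 to 76.6), near the 58.8% of all WT genes. The 20 missing from GFP included Kiss1r, the kisspeptin receptor, with 4 WT peaks between +3007 and +4829 bp. Adora1 (adenosine), Htr1a (serotonin) and Oprd1 (opioid) had 3 each. Of 14 ligand-gated channel genes in WT, 8 were missing from GFP, among them Grin2b, an NMDA receptor subunit, with peaks at +499 and +1814 bp, and the GABA receptor subunits Gabra2 at +226 bp and Gabra4 at -46 bp. Potassium channels were shared in 17 of 33 cases. Kcns3, a modulatory subunit with 3 WT peaks, was missing from GFP. Of the other channels, the T-type calcium channel Cacna1g had 3 WT peaks and the pacemaker channel Hcn4 had 2, with none in GFP.

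Guidance and adhesion families differed in how much was shared. Of 16 cadherin and protocadherin genes in WT, 15 were in GFP, or 93.8% (69.8 to 99.8), and Cdh4 alone was not. Of 22 integrin, claudin and immunoglobulin-type adhesion genes, 10 were in GFP, or 45.5% (24.4 to 67.8). Nrcam, an axonal adhesion molecule, had 3 WT peaks and no GFP peak. Axon guidance genes were shared in 25 of 40 cases, and the 15 in WT only included Nxph4, a neurexophilin, with 5 WT peaks, the Nogo receptor gene Rtn4r and the netrin gene Ntn3 with 3 each, and Sema6d and Slit3 with 2 each. Matrix genes were shared in 28 of 53 cases, and Kazald1, whose product resembles insulin-like growth factor binding proteins, had 5 WT peaks from +1772 to +4457 bp and none in GFP.

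The family named small GTPase regulators, formed by gene symbol, had the lowest share of any family of over 10 genes. It also took in Rgs20, which acts on heterotrimeric G proteins, so its share is not that of small GTPase regulators alone. Of 44 genes of this family listed in WT, 12 recurred in GFP, or 27.3% with an upper interval bound of 42.8%, and 32 did not. Those with the most peaks were Cdc42ep3, an effector of Cdc42, Dock8, a Cdc42 activator of immune cells, Rasgrf2, Rasl10a and Rgs20, which speeds GTP hydrolysis by G proteins, with 3 WT peaks each. The Dock8 peaks lay at -476, -48 and +599 bp. Protein kinases and phosphatases reached 37.2% (23.0 to 53.3), with 16 of 43, and solute carriers 40.5% (24.8 to 57.9), with 15 of 37. Missing from GFP were Camk4, a calcium-dependent kinase of neurons and T cells, and Ptpn5, a neuronal phosphatase, with 3 WT peaks each, and Slc30a3, which loads zinc into synaptic vesicles, also with 3. Serpine2, a protease inhibitor, had 4, and Nt5e, the ecto-nucleotidase that forms adenosine, had 4 from -1324 to +3151 bp. Glycosyltransferases and sulfotransferases were shared in 19 of 40 cases.

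Chromatin genes were listed in WT in 13 of 168 cases and genes of cyclins and their inhibitors in 6 of 45, beside the 7.32% of all protein-coding symbols. Among Polycomb genes, Bmi1, of PRC1, had 4 WT and 5 GFP peaks. Cbx2 (1 peak at -467 bp), Yaf2 (-215 bp) and Bcorl1 (3 peaks) were in WT only, and Cbx8 (3 peaks) and Bcor (2 peaks) in GFP only. All 5 encode subunits or partners of PRC1 complexes, so genes of such subunits stood in both sets. Of the NuRD genes, Chd3, a remodelling ATPase, was in WT only with peaks at +844 and +1288 bp. Cdkn2a, the locus of p16 and ARF, had 4 WT peaks and no GFP peak. Ccnd2, cyclin D2, had 1 WT and 5 GFP peaks. Of 17 pluripotency genes, Esrrb was listed, with 3 WT peaks and 1 GFP peak. Of 12 germline genes, Prdm14 was listed, in WT only, at +377 and +1141 bp. None of 14 housekeeping genes was listed in either library.

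The difference between classes was also present among genes with equal numbers of WT peaks. Of genes with a single WT peak, 136 of 159 transcription factors were listed in GFP, or 85.5% (79.1 to 90.6), against 331 of 753 other genes, or 44.0%. With that peak also centred within 1000 bp of the start site, the shares were 67 of 81 (82.7%, interval 72.7 to 90.2) and 221 of 558 (39.6%). Among transcription factors the share was 86.3% with 2 WT peaks and 89.0% with 3 or more, so it varied little with the number of peaks. Ligands with 1 WT peak were shared at 56.2% (37.7 to 73.6) and those with 2 at 86.7% (69.3 to 96.2), with overlapping intervals. For receptors the shares were 57.3%, 63.0% and 59.1% with 1, 2 and 3 or more peaks. For enzymes they were 32.5% (22.4 to 43.9), 51.7% (38.2 to 65.0) and 42.1% (20.3 to 66.5). Genes in no family went from 42.1% with 1 peak to 68.7% with 3 or more. Peak height was not available, and its part in these shares was not tested.

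**Figure D2:**
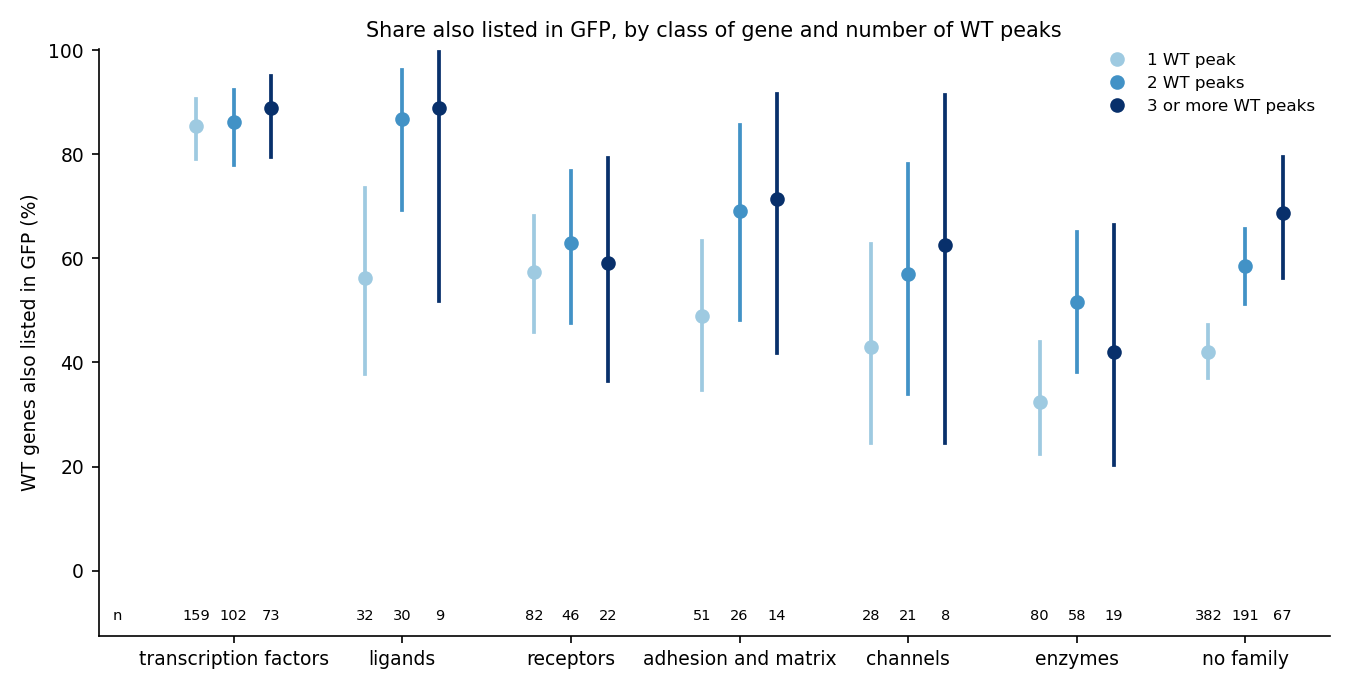
Share of WT genes also listed in GFP (%), by class of gene (horizontal axis) and number of WT peaks within 5000 bp (shade). Points are shares, bars exact 95% Clopper-Pearson intervals, and n is the number of WT genes. Transcription factors lie between 85.5% and 89.0% at every number of peaks, above the enzymes at 32.5% to 51.7%.

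The 72 GFP-only genes held 22 transcription factors, a proportion like that of the shared genes (289 of 979). Among WT-only genes it was 45 of 685. Hox genes, the regulators of position along the body axis, set GFP only apart. They were 16 of its 72 genes, against 18 of the 979 shared and 2 of the 685 WT-only genes. The 6 other transcription factors were Dlx1, Tbr1, Tbx4, Id4, Myc and Mixl1. Tbr1, a T-box factor of cortical neurons, had 5 GFP peaks at +197, +1224, +2466, +3519 and +4493 bp and none in WT. Dlx1, of forebrain interneurons, had 3, and Tbx4, of the hindlimb, had 2, at -3203 and -1428 bp. Myc (+1506 bp), Id4 and Mixl1 (-462 bp) had 1 each. Hoxb3 had 7 GFP peaks from -2438 to +4312 bp, Hoxb4 and Hoxc6 had 5 each, and Hoxc10, Hoxd12 and Hoxd13 had 4 each. In the other direction, Hoxb1, the most anterior gene of its cluster, was in WT only with 3 WT peaks. Genes close together shared peaks, so these counts overlap. Hoxb3 and Hoxb4 shared 1 GFP peak, Hoxc6 shared 3 with Hoxc5, which was in both, and the 2 peaks of Hoxa3 and the 2 of Hoxa7 were the same peaks. In all, 23 of the 72 GFP-only genes shared a GFP peak with another gene, against 45 of the 685 WT-only genes that shared a WT peak.

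The other large group in GFP only consisted of names of the interferon zeta cluster, a tandem array of near-identical copies, for which the division of reads between copies is uncertain. They were picked out after their values were seen. Gm13275, Gm13288 and Ifnz had 5 GFP peaks each, Gm13276 had 4, Gm13283 had 3 and Gm13271 had 2, and none of the 6 had a WT peak. They also had 0 peaks in ΔMBD and 4 to 7 each in ΔCC. Gm13271 and Gm13283 shared 2 peaks. Without the Hox and interferon zeta names, 50 GFP-only genes remained, with 1.38 GFP peaks on average, and 39 of them (78.0%) had 1 peak. Among these were Arid1b, a subunit of the BAF remodelling complex, at +173 bp, Dcc, the netrin receptor, at +1381 bp, and the synapsin gene Syn2 at +484 bp. Nefm, a neurofilament gene, had 2 GFP peaks at +178 and +503 bp, while its family member Nefl was in both with 1 WT and 3 GFP peaks.

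At genes listed in both libraries, transcription factors tended to have more GFP than WT peaks, and other genes did not. Over the 979 shared genes, 28.9% had more peaks in WT (283), 31.7% fewer (310), and 386 had equal numbers, with means of 1.77 WT and 1.85 GFP peaks. Among the 289 shared transcription factors, 127 had fewer peaks in WT, or 43.9% (38.1 to 49.9), and 62 had more, with means of 1.92 and 2.35. Without the Hox genes the counts were 116 and 58 of 271, and the means 1.89 and 2.25. Among the 690 other genes, 183 had fewer in WT, or 26.5% (23.3 to 30.0), and 221 had more, with means of 1.70 and 1.64. The number of peaks depends on how the caller divided broad regions and says nothing of how strongly SUZ12 was bound.

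**Figure D3:**
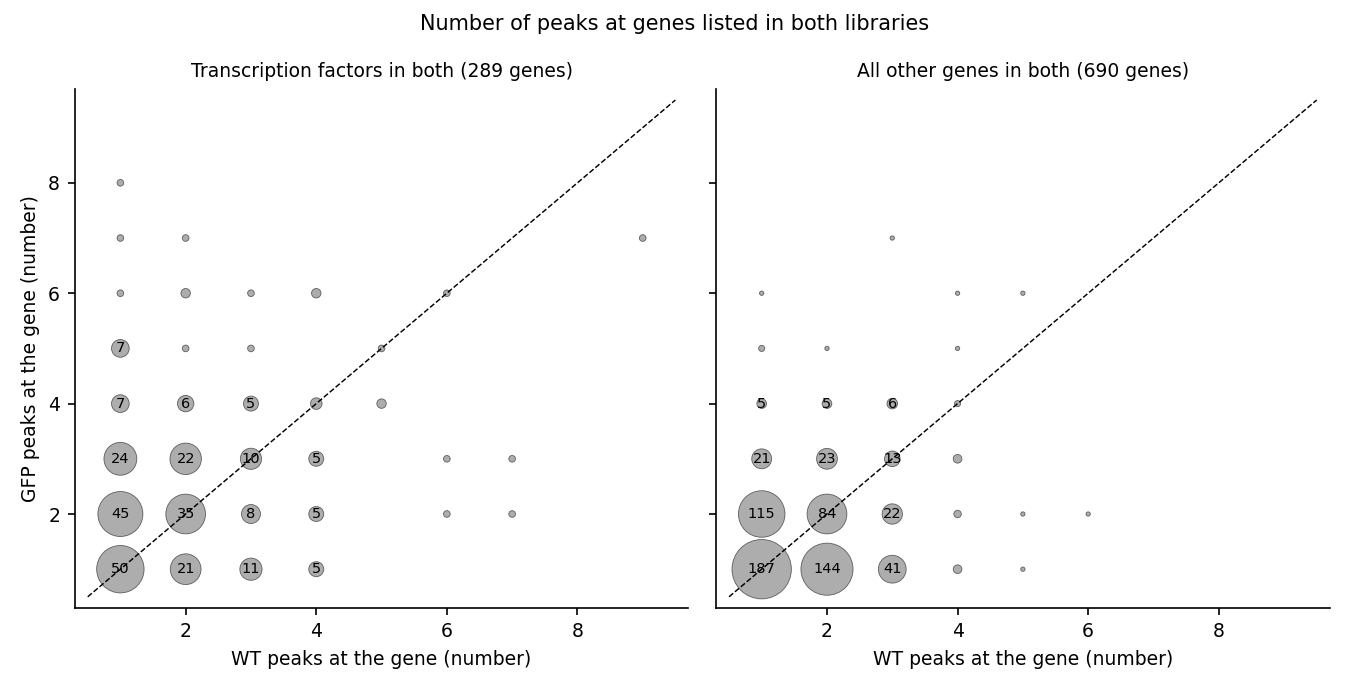
Number of WT peaks (horizontal axis) and GFP peaks (vertical axis) at genes listed in both libraries, for 289 transcription factors and 690 other genes. The area of a circle is proportional to its share of the panel's genes, numbers give circles of at least 5 genes, and the dashed line marks equal numbers. More transcription factors lie above the line (127) than below it (62), and fewer of the other genes lie above it (183) than below it (221).

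Most families of transcription factors went the same way. Among the 101 shared homeobox genes outside the Hox clusters, 46 had fewer peaks in WT and 23 had more, and among the 18 shared Hox genes 11 had fewer and 4 more. POU domain and Zic, Gli and Glis genes had 4 with fewer and 0 with more each. None of the 18 shared forkhead genes had more peaks in WT, 9 had equal numbers and 9 had fewer. Foxd3, a forkhead factor of the neural crest, had 1 WT peak at +565 bp and 7 GFP peaks from -4555 to +3709 bp, one of them at +535 bp. Of the zinc finger genes of the Gfi, Snai, Prdm, Ikzf, Egr and Bcl11 kind, 14 of 24 had fewer in WT and 1 had more. Fezf1 and Fezf2, of forebrain neurons, had 1 WT and 5 GFP peaks each. Other genes with 1 WT and 5 GFP peaks were Atoh1 (hair cells and cerebellar granule cells), Nkx2-5 (heart), Pax2 (kidney and midbrain) and Pdgfra, a growth factor receptor. Hoxc8 had 1 and 8, and Sp8, of limb and brain, 1 and 6. The bHLH genes were balanced, with 11 having more in WT and 9 fewer, and the Zfp and other numbered zinc finger genes had 6 with more and 2 with fewer.

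Other shared genes had more peaks in WT. Hoxb13 had 7 WT and 2 GFP peaks, Hoxd1 6 and 2, and Isl1, of motor neurons and heart, 6 and 3. Pax5 of B cells, Dlx3 and Irx6 had 4 WT peaks and 1 GFP peak each. Outside the transcription factors, Lrg1 had 6 and 2, the protease gene Ecel1 5 and 1, and Bahd1, a heterochromatin protein gene, 5 and 2. None of the 11 shared genes of adenylyl cyclases, phosphodiesterases and phospholipases had fewer peaks in WT, and 7 had more. Shared enzymes as a class had more in WT at 24 genes and fewer at 12, with means of 1.77 and 1.47.

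**Figure D4:**
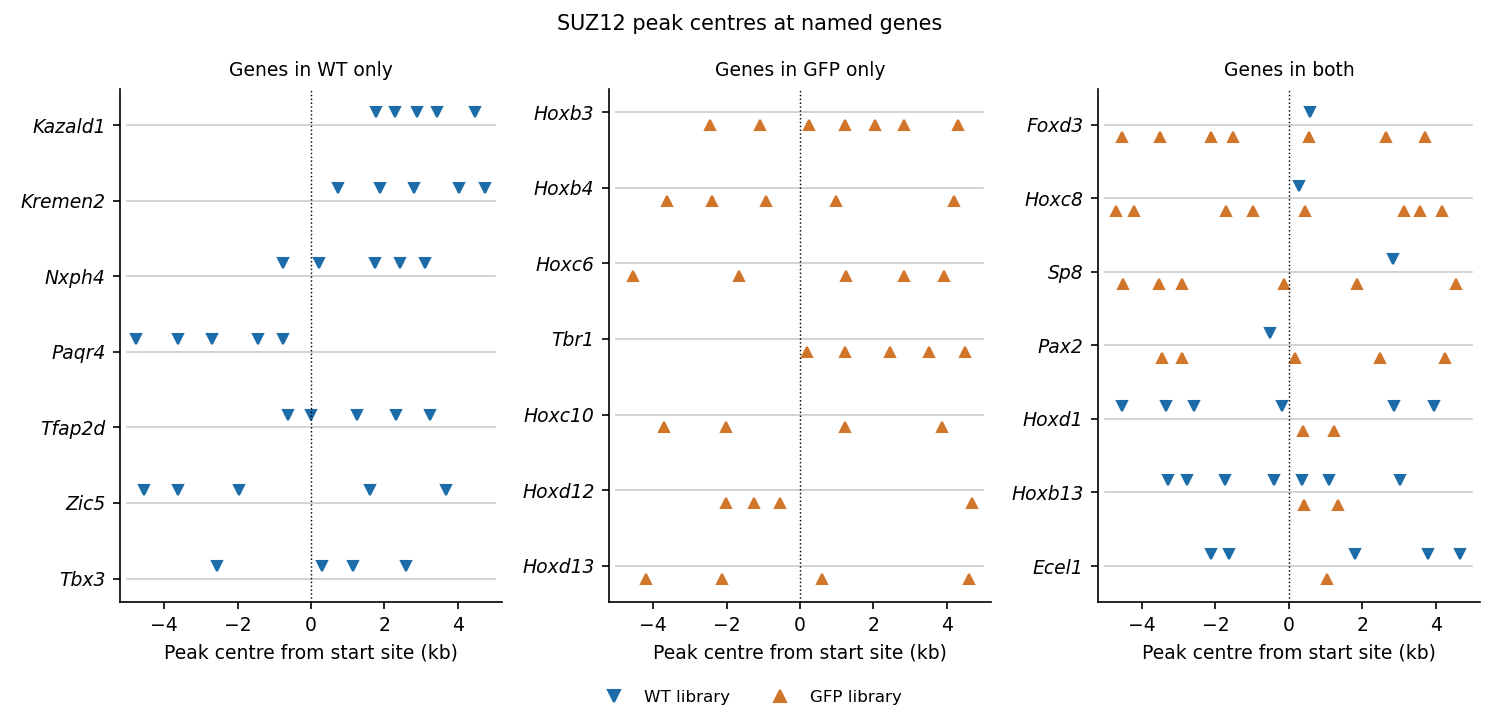
Position of each SUZ12 peak centre in kb from the start site (horizontal axis, positive is downstream) at genes in WT only, GFP only and both. Triangles pointing down are WT peaks and triangles pointing up GFP peaks. Foxd3, Hoxc8, Sp8 and Pax2 have 1 WT peak among 5 to 8 GFP peaks, and Hoxd1, Hoxb13 and Ecel1 have 5 to 7 WT peaks and 1 or 2 GFP peaks.

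Peaks of the WT-only genes lay closer to the start site than peaks of shared genes. Of 987 WT peaks at WT-only genes, 68.2% (65.2 to 71.1) were centred within 1000 bp of the start site. At shared genes the share was 43.1% (40.7 to 45.5) of 1697 WT peaks and 46.7% (44.3 to 49.0) of 1770 GFP peaks, and at GFP-only genes 37.1% (28.9 to 46.0) of 132 GFP peaks. Peaks centred beyond 3000 bp made up 5.17%, 15.6%, 15.5% and 28.0% in the same order. WT-only genes also had fewer peaks, with a mean of 1.48 and 65.0% (61.3 to 68.5) of them with 1, against 47.7% (44.5 to 50.9) of shared genes counted by WT peaks. That order turned round when the sets were kept and peaks within 1000 bp alone were counted, at genes with such a peak. WT-only genes then had 1.21 WT peaks on average and shared genes 1.12. Among genes with 1 WT peak, that peak lay within 1000 bp at 78.9% (74.8 to 82.6) of WT-only genes and at 61.7% (57.1 to 66.1) of shared genes, so the difference was also present at equal peak number. The median distance of the closest WT peak was 489 bp (quartiles 226 and 803) at WT-only genes and 678 bp (333 and 1182) at shared genes.

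Part of the same pattern followed the class of the gene. At shared transcription factors 30.6% (26.8 to 34.6) of WT peaks lay within 1000 bp, and at other shared genes 48.7% (45.8 to 51.6). Among WT-only genes the shares were 42.5% (31.5 to 54.1) for transcription factors and 70.5% (67.4 to 73.4) for the others. Within the genes other than transcription factors, WT-only peaks thus still lay closer than shared ones. In every set more peaks lay downstream of the start site than upstream: 72.7% at WT-only genes, 67.1% of WT peaks and 67.9% of GFP peaks at shared genes, and 59.8% (51.0 to 68.3) at GFP-only genes.

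**Figure D5:**
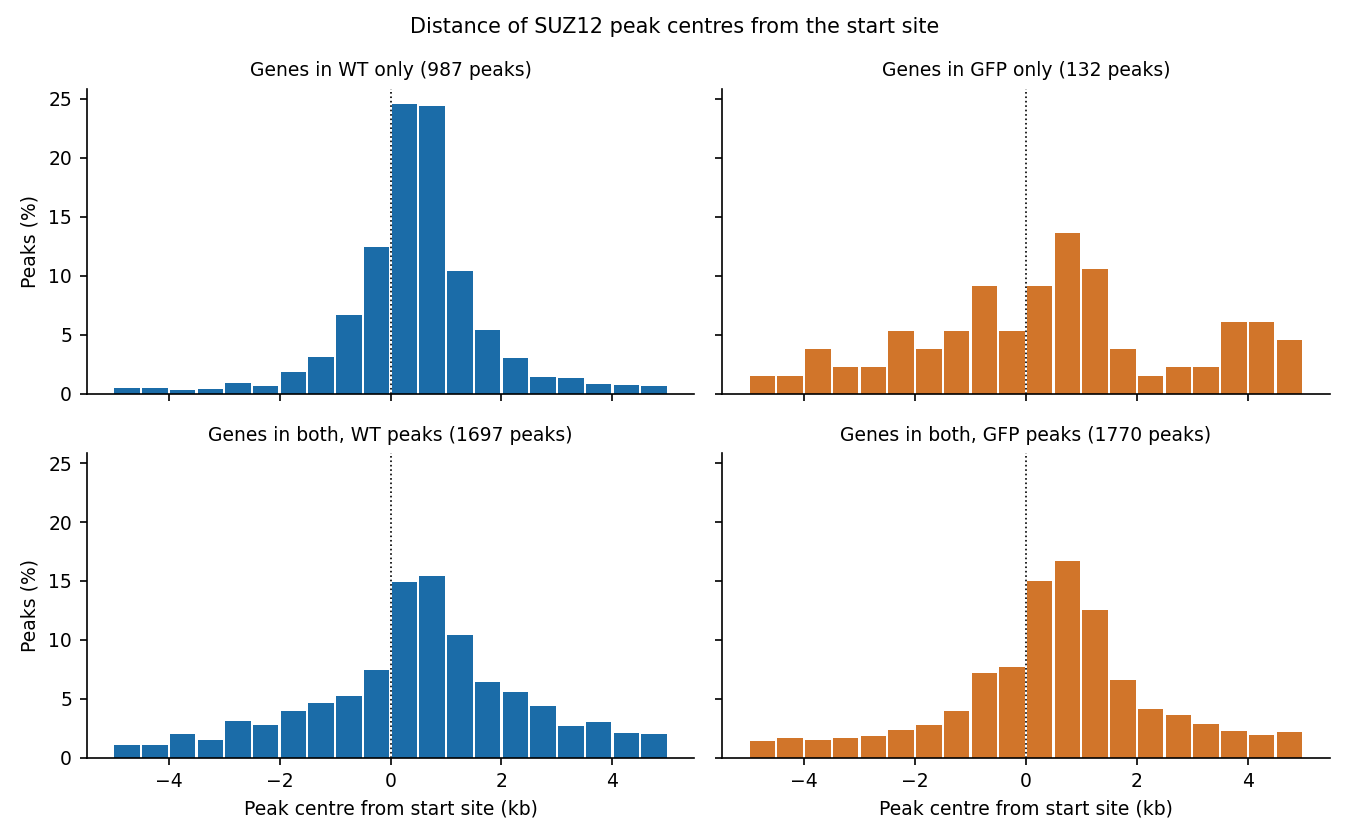
Share of SUZ12 peaks (%, vertical axis) by signed distance of the peak centre from the start site in bins of 500 bp (axis in kb, positive is downstream), for the 4 combinations of gene set and library. WT-only genes have the narrowest distribution, with 68.2% of 987 peaks within 1 kb. GFP-only genes have the lowest share, with 37.1% (28.9 to 46.0) of 132 peaks, an interval that overlaps those of shared genes. Hox and interferon zeta names are included in GFP only.

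Where a gene was listed in both libraries, its closest WT and GFP centres mostly lay within 1000 bp of each other. The closest WT and GFP centres were within 1000 bp of each other at 907 of 979 genes (92.6%, interval 90.8 to 94.2) and within 250 bp at 489 (49.9%). Counted by peaks, 68.5% (66.3 to 70.7) of WT peaks and 70.5% (68.3 to 72.6) of GFP peaks at these genes had a peak of the other library within 1000 bp. Within 500 bp the shares were 48.5% and 48.0%. The closest peak lay within 1000 bp of the start site at 66.8% of these genes in WT and 68.6% in GFP. Some nearness of centres follows from that alone, and how much was not tested. For the 237 genes with 1 peak in each library, the centres differed by a median of 308 bp (quartiles 124 and 588). The WT centre lay downstream of the GFP centre at 119 of them and upstream at 117, so neither direction prevailed. Where 1 WT peak faced at least 3 GFP peaks, the WT centre lay between the outermost GFP centres at 59 of 70 genes (84.3%, 73.6 to 91.9), and the reverse held at 48 of 62 genes (77.4%, 65.0 to 87.1). All centres lie within 5000 bp of the start site, and how often a peak would lie between the outermost ones from that alone was not tested.

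The libraries from cells with shortened MBD3, which took no part in defining the sets, listed WT-only genes the more often the more WT peaks they had. Of WT-only genes with 1 WT peak, ΔMBD listed 70.6% (66.1 to 74.8) and ΔCC 22.5% (18.7 to 26.6). With 2 WT peaks the shares were 92.5% (87.6 to 96.0) and 31.6% (24.8 to 39.1), and with 3 or more 93.9% (85.2 to 98.3) and 43.9% (31.7 to 56.7). Over all WT-only genes the shares were 78.4% in ΔMBD and 26.9% in ΔCC. The 2 libraries listed 1677 and 1221 genes in all. They listed 98.1% and 93.3% of shared genes. GFP-only genes went the other way, with 38.9% (27.6 to 51.1) in ΔMBD and 76.4% (64.9 to 85.6) in ΔCC. The part of library size in these shares was not tested. By class, ΔCC listed 47.4% (24.4 to 71.1) of WT-only ligands, 7 of 28 channels (10.7 to 44.9%), 31.6% (17.5 to 48.7) of adhesion and matrix genes, 37.8% (23.8 to 53.5) of WT-only transcription factors, 41.0% (28.6 to 54.3) of receptors, 19.4% (11.9 to 28.9) of enzymes and 13.0% (2.78 to 33.6) of transporters. All these intervals but that of receptors include the share over all WT-only genes. ΔMBD listed 89.5%, 67.9%, 65.8%, 86.7%, 82.0%, 80.6% and 73.9% of these classes in the same order. Tbx3 had 4 ΔMBD peaks and 0 in ΔCC, Nxph4 had 2 and 4, and Serpine2 had 0 in both.

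Several WT-only genes stand for the same peaks. The 5 WT peaks of Kremen2 were also the 5 of Paqr4, a membrane receptor gene beside it, and the 3 of Ntn3 were also the 3 of Tbc1d24, so each pair of genes was listed through 1 set of peaks. Tbc1d24 was picked after its links were seen. Of the 987 WT peaks at WT-only genes, 974 were linked to WT-only genes alone and 13 also to a shared gene. Only 9 WT-only genes had all their WT peaks linked to a shared gene as well, so the set of 685 was changed little by links to neighbours.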

How the data were processed

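Per the labels' protocols, SUZ12 ChIP-seq libraries were read from 1 end on a NextSeq 500. MACS2, bcl2fastq 2.18.0.12 and build mm9 appear in the submitters' processing notes. An aligner, a peak threshold and the role of the input were not given in the sources used here. Peaks were linked to genes with GREAT 3.0.0, per the file headers, to the nearest gene on each side within 5000 bp, and curated regulatory domains. Each deposited file holds peak names and the signed distance in bp of each peak from the start site. Heights, widths and reads were not analysed here, and depth is unknown.

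From these tables, genes with at least 1 linked peak within 5000 bp were listed per library and divided into WT only, GFP only and both. A peak matched another at the same gene when their centres lay within 1000 bp. Of the 1736 symbols, 1644 matched a RefSeq symbol (GRCm38.p6), 52 matched 1 synonym and 40 neither, 2 of which a spreadsheet had turned into dates. Those were kept as named in the files. Each symbol was placed in the first fitting of 46 families by its letters, and 14 lists of lineage, pathway and comparison genes were used. With 1 library a group no test was made. Shares carry exact 95% Clopper-Pearson intervals from SciPy. Members, families and lists were chosen with earlier results of these data known.

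The text names WT-only genes with at least 4 peaks, GFP-only genes with at least 2, the 15 shared genes with the largest difference in each direction (at least 3 peaks), list members in 1 library alone, and in each family up to 5 WT-only, 4 GFP-only and 4 shared genes by number of peaks, then closeness to the start site, then alphabet. A few genes that met this rule are left out of the text. Promoters were taken by the same order where a peak was centred in the window. Alternatives were other windows, at least 2 peaks, links to 1 gene, all deposited pairs, symbols found in RefSeq, Hox genes left out, other matching distances and strata by peak number. The functions were tested on simulated tables. Software was matplotlib 3.10.9, SciPy 1.17.1, NumPy 2.4.6 and Python 3.11.15.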

Additional observations from a re-analysis of the deposited data

How the results depend on the processing

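Over 26 results and 102 values under alternatives, 51 moved by less than their counting interval or 1.5 times for a count, and 51 moved further. Mean numbers of peaks per gene had no criterion of their own and were counted with the share of genes with 1 peak. Each value was a single count, share or mean without a direction, so a reversal was not assessed. No paired analysis was possible because each group has 1 library. Within 1000 bp, 163 genes were in GFP only and 551 in both, and the shares of WT genes in GFP and of GFP genes in WT were 45.3% and 77.2% (91.4% for the latter within 2500 bp). The share in GFP was then 64.3% for transcription factors and 41.9% both for all other genes and for receptors to structural genes. Peaks per gene were recounted within 1000 bp with the sets of 5000 bp kept, at genes with such a peak. Genes with 1 peak made up 80.6% of WT only and 88.2% and 77.8% of shared genes by WT and GFP peaks. They made up 83.3% of GFP only, and the means were 1.21, 1.12, 1.24 and 1.17 peaks in the same order. With at least 2 peaks required in each library, WT listed 752 and GFP 546 genes, 261 in GFP only and 285 in both, with shares of 37.9% and 52.2%. Among WT genes with at least 2 WT peaks, 62.2% of genes other than transcription factors, 59.2% of receptors to structural genes, 87.2% of ligands and 49.4% of enzymes were in GFP. With 1 WT peak these were 44.0%, 43.8%, 56.2% and 32.5%, and with that peak within 1000 bp 39.6%, 39.6%, 52.6% and 31.7%. Leaving out Hox and interferon zeta names put 95.1% of GFP genes in WT. These last 3 settings were chosen after seeing the data. Centres matched within 500 bp for 48.5% of WT and 48.0% of GFP peaks at shared genes, and within 2000 bp for 85.6% and 86.4%. Peaks within 500 bp of the start site made up 37.1% at WT-only genes, 22.5% and 22.7% of WT and GFP peaks at shared genes, and 14.4% at GFP-only genes. Within 2000 bp they made up 88.9%, 68.6%, 72.5% and 60.6%, and for the closest peak of each gene within 1000 bp 81.9%, 66.8%, 68.6% and 58.3%. The order of WT only above shared above GFP only held in these settings, but the main GFP-only interval overlapped those of shared genes. The planned CpG alternatives were not run, because too few genes had a promoter entry.

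A gene missing from the GFP list was not shown to lack SUZ12. The GFP table held fewer peaks in all, and without heights, widths or reads a lower sensitivity of that library and a loss of sites cannot be told apart. The input came from other cells, and whether it served as control is not given.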

Other observations

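Some listed genes belong to families of near-identical copies, whose peaks are uncertain because the division of reads between copies is not recorded. They were picked out after their values were seen. Of 9 H2 genes, which encode class I and class II histocompatibility proteins, H2-Ab1 and H2-Q1 (2 WT peaks each) and H2-Bl, H2-D1 and H2-Q4 (1 each) were in WT only. H2-Q6 was in GFP only with 1 peak, and H2-K1, H2-Q7 and H2-Q10 were in both. Gm10800 and Gm10801, 2 gene models, had 4 peaks in WT and 4 in GFP at almost the same distances: at Gm10801 the WT centres lay at 299, 1699, 2875 and 4716 bp and the GFP centres at 296, 1630, 2912 and 4662 bp. These models had 4 peaks in ΔMBD and in ΔCC as well. The mitochondrial gene mt-Nd1 was listed in both libraries with 1 peak each, and mt-Nd2 in WT only through the same WT peak.

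Genes of the neuropeptides of the posterior pituitary, picked out in the same way, lie side by side. Avp, vasopressin, was in WT only with 2 WT peaks, 1 of them shared with Oxt, oxytocin, which was in both and had 3 WT peaks.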
